A study of Mus musculus with 5 samples.

Results

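The 9 genes described here encode the entry of pyruvate into the tricarboxylic acid (TCA) cycle and the first oxidative steps of that cycle. They are Pdha1, Pdhb and Dlat, which encode the E1 alpha, E1 beta and E2 subunits of pyruvate dehydrogenase, Dld for the E3 subunit, Cs for citrate synthase, Idh3a, Idh3b and Idh3g for the subunits of NAD-linked isocitrate dehydrogenase, and Ogdh for the E1 subunit of 2-oxoglutarate dehydrogenase. Members were every probe set that the array's annotation names for 1 of these genes, which gave 23 of the 45101 probe sets in the table. A filter on dim probe sets (a mean signal over the 5 arrays below 33.0) left 21 of the 23, with at least 1 for each gene. The other 2, a probe set of Dld (1433263_at, signals 0.993 to 13.4) and a probe set of Idh3a (1447701_x_at, signals 2.02 to 39.9), were not tested.

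The cells were germinal centre B cells, sorted by flow cytometry from spleens of C57BL/6 mice aged 12 weeks on day 7 after an injection of sheep red blood cells. The 3 WT samples were eGFP− cells of mice with Cg1-Cre and no floxed allele. The 2 REL samples were eGFP+ cells of relfl/flCg1-Cre littermates, in which Cre acts on floxed alleles of Rel (it encodes c-Rel, a transcription factor of the NF-kB family), so that all mice of the study carried the Cre. As background, Cg1-Cre is expressed from the immunoglobulin gamma 1 locus, so that it acts in B cells that have begun to transcribe this locus for class switching. The labels do not say what drives eGFP, how many mice were used for each sample or whether samples came from separate mice, so that the p-values below cover only the variation among these samples, possibly technical. Each sample was measured on 1 single-colour Affymetrix array, and a signal is the MAS5 intensity of a probe set on a linear scale.

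Pyruvate dehydrogenase is a mitochondrial complex that turns pyruvate, the end product of glycolysis, into acetyl-CoA and NADH. Citrate synthase joins this acetyl-CoA to oxaloacetate, and isocitrate dehydrogenase and 2-oxoglutarate dehydrogenase then each release carbon dioxide and make NADH for the respiratory chain. The E3 subunit is shared by pyruvate dehydrogenase, 2-oxoglutarate dehydrogenase, the branched-chain ketoacid dehydrogenase and the glycine cleavage system. Germinal centre B cells divide rapidly, and oxidative metabolism is known as an energy source for them.

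Rel itself gave signals of 492, 134 and 206 in WT, against 18.6 and 85.2 in REL, with each REL value below each WT value. The labels do not say which exons are deleted, so its probe set need not test the deletion. Of 13 markers listed for B cells and germinal centre B cells 11 were measured, 3 of them higher in REL. The summed signals of the 11 were 65148 to 78973 in WT and 65630 to 71563 in REL. Both REL values lay below every WT value for Gcsam (3368 and 2442 against 3726 to 4298) and Rgs13 (4514 and 3321 against 4960 to 6058), and both above for 0 of the 11. Beside these and the following marker counts, 56% of all genes tested were lower in REL. Both REL values lay below every WT value for 14.2% of all genes and above for 10%. Of 17 macrophage and monocyte markers, all on the array and 15 past the filter, 14 of the 15 were higher in REL, 12 of them with both REL values above every WT value, and 1, Adgre1, had both below (119.9 and 116.3 against 154 to 435.2), with summed signals of 1400 to 2455 in WT and 7356 to 9069 in REL. Among them Vcam1 was at 0.833 to 2.46 in WT, close to 0, and at 671 and 390 in REL. Of 8 T cell, 7 erythroid and 8 neutrophil markers only 2, 1 and 3 passed the filter. Summed signals of the T cell markers were 207 to 491 in WT and 272 to 809 in REL, and those of the erythroid markers 149 to 548 and 57.5 to 128. Those of the neutrophil markers were 166 to 1341 and 111 to 410, and those of the plasma cell markers 17807 to 20836 and 17278 to 19114. The T cell sum in REL 1 was mostly Cd247 (630 there, 168 in REL 2, 16.3 to 307 in WT). Cd3d, Cd3e, Cd3g and Cd4, under the filter, were at 4.63 to 21.7 in REL and 6.06 to 83.0 in WT. Among the 5 plasma cell markers Sdc1 had both REL values below every WT value (42.6 and 42.4 against 125 to 455), and Xbp1 had both above (2469 and 2805 against 1708 to 1985). The middle probe set of 18S ribosomal RNA was at 8696 to 9822 in WT and at 11953 and 13417 in REL, while the ratio of 3′ to 5′ signal for Actb, which reports RNA integrity, was 1.58 to 2.45 in WT, against 1.64 and 1.73 in REL. The part of other cell types and of RNA quality in the results below was not tested. In RNA from sorted cells in bulk, fewer cells of a type and less RNA per cell cannot be told apart.

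The comparison asked whether the RNA of these enzymes differed between germinal centre B cells with and without the Rel deletion genotype. All REL cells were sorted as eGFP+ and all WT cells as eGFP−, so that genotype and eGFP sorting cannot be told apart. Differences are REL minus WT on the log2(signal + 16) scale, which understates changes of dim probe sets, and unless a probe set is named the values of a gene are those of its brightest probe set. Of the 9 genes 7 were lower in REL, where 56% of the 11329 genes tested were lower. Neither REL array reached the lowest WT array for 4 of the 9 genes (Idh3g, Idh3b, Pdhb and Dlat), against 14.2% of all genes, and for 0 of the 9 both REL arrays lay above, against 10% of all genes. The median difference of the 9 genes was −0.28, beside −0.064 for all genes tested. No gene of the 9 passed limma's test at an adjusted p under 0.05 (adjusted p 0.483 to 0.966), and 0% of all genes did. At an unadjusted p under 0.05 there were 2 of the 9, Idh3g and Idh3b, both lower, against 8.33% of all genes in either direction and 4.97% lower. That count was 3 without WT 1, 1 without WT 2 and 0 without WT 3.

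**Figure D1:**
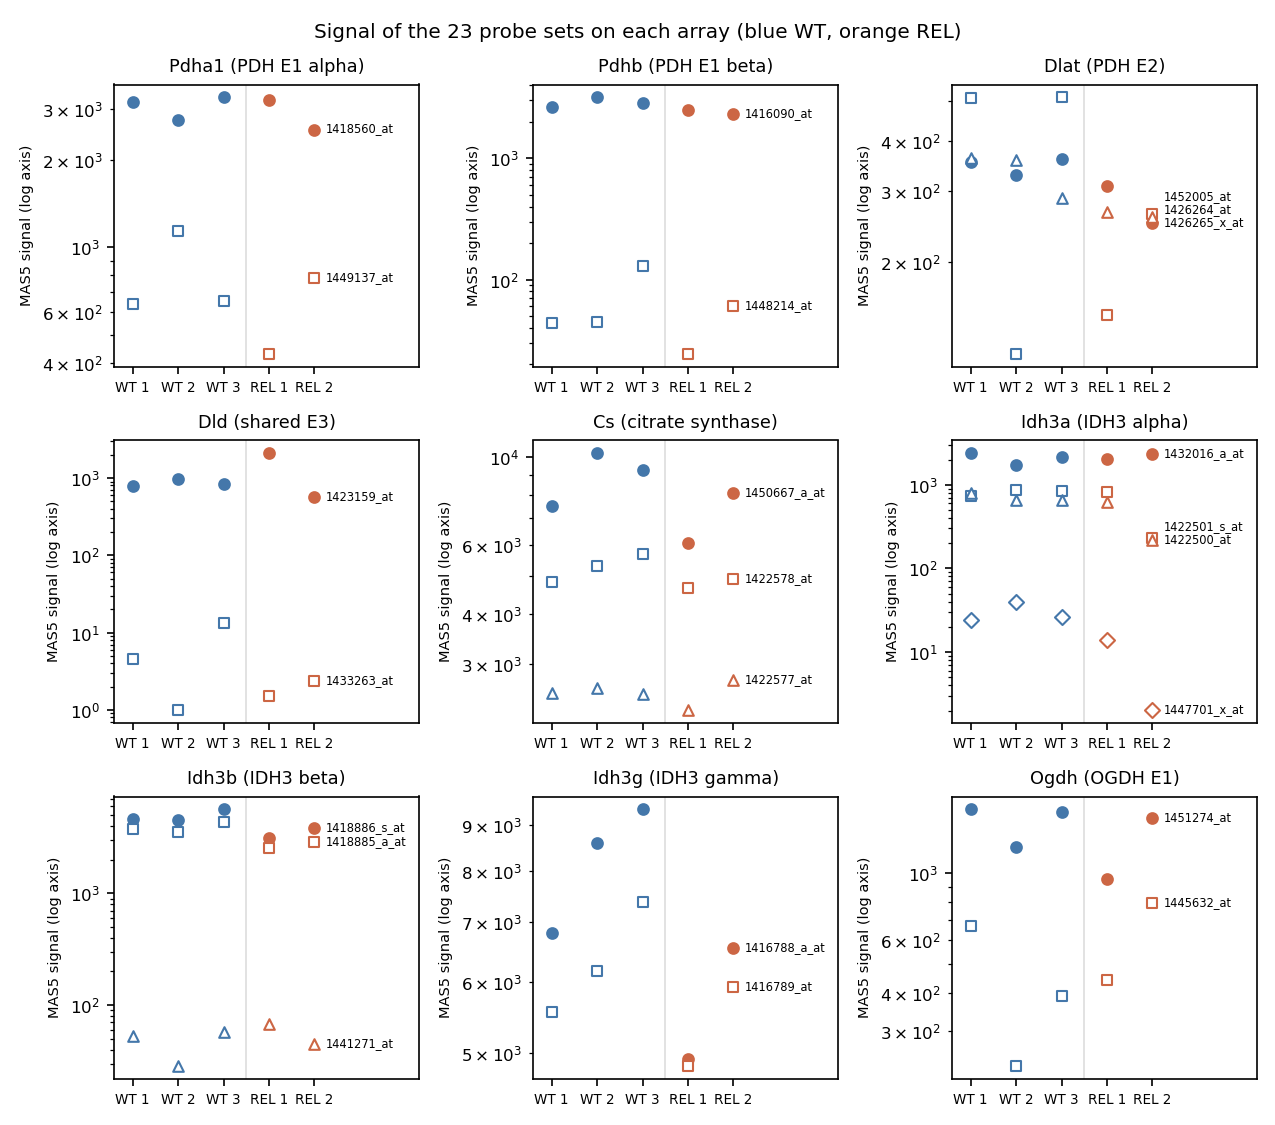
MAS5 signal (log axis) of all 23 probe sets on the 3 WT arrays (blue) and the 2 REL arrays (orange), with 1 panel per gene. Filled symbols mark the brightest probe set of each gene and open symbols the others, and the REL points of Idh3b and of the filled Idh3g probe set lie below all their WT points, apart from the dim Idh3b probe set 1441271_at.

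The brightest probe sets of the isocitrate dehydrogenase subunits were lower in REL for Idh3b and Idh3g and overlapped for Idh3a. Idh3b, which encodes a regulatory subunit, gave signals of 4647, 4576 and 5655 in WT, against 3147 and 3850 in REL. Both REL values lay below the lowest WT value, and the difference was −0.50 (SE 0.19, 95% interval −0.93 to −0.077), a level 1.42-fold higher in WT, with an adjusted p of 0.493 over all genes in limma. Its probe set 1418885_a_at gave signals of 3738, 3518 and 4370 in WT, against 2539 and 2880 in REL, again without overlap, and a difference of −0.51 (SE 0.20). Its other probe set, 1441271_at, was dim (28.5 to 67.1) and at 0.22 (SE 0.61).

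Idh3g, which encodes the other regulatory subunit, gave signals of 6812, 8582 and 9367 in WT, against 4925 and 6544 in REL. The REL values again lay below all WT values, REL 2 by little, and the difference was −0.53 (SE 0.19, 95% interval −0.95 to −0.10), 1.44-fold higher in WT, with a limma adjusted p of 0.483. Without REL 1 and without REL 2 the difference was −0.32 and −0.73 for Idh3g and −0.36 and −0.65 for Idh3b. The other probe set of Idh3g, 1416789_at, had 5562, 6172 and 7382 in WT, against 4832 and 5932 in REL, so that REL 2 lay inside the WT range, and its difference was −0.24 (SE 0.18).

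Idh3a encodes the catalytic subunit, and its brightest probe set, 1432016_a_at, gave signals of 2372, 1714 and 2169 in WT, against 2016 and 2323 in REL. The groups overlapped and the difference was 0.067 (SE 0.25, 95% interval −0.48 to 0.62), and −0.067 and −0.035 without WT 2 and without REL 2. The probe sets 1422500_at and 1422501_s_at gave another picture on 1 array. The first had 793, 658 and 663 in WT, 625 in REL 1 and 221 in REL 2, and the second 733, 855 and 830 in WT, 826 in REL 1 and 229 in REL 2. On REL 1 both lay near or within the WT range, and their differences of −0.88 (SE 0.49) and −0.85 (SE 0.52) rest on REL 2. The untested probe set of Idh3a was also lowest in REL 2, at 2.02.

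Within each array, the deviation of Idh3b from its WT mean less that of Idh3a was −0.28, 0.16 and 0.13 in WT, against −0.61 and −0.53 in REL. For Idh3g less Idh3a it was −0.46, 0.34 and 0.12 in WT, against −0.70 and −0.49 in REL. The REL arrays lay below the WT arrays in both, REL 2 narrowly so for Idh3g, with mean shifts of −0.57 and −0.59. With the Idh3a probe set 1422500_at in place of the brightest, Idh3b less Idh3a was −0.48 in REL 1 and 1.25 in REL 2, on opposite sides of the WT values (−0.26 to 0.28), and Idh3g less Idh3a −0.57 and 1.28. Idh3g less Idh3b gave a mean shift of −0.024, with values of −0.18, 0.18 and −0.00081 in WT, against −0.084 and 0.036 in REL. These 3 subunit comparisons were chosen after seeing the data and are given as a description with no test.

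For pyruvate dehydrogenase, Pdhb gave signals of 2623, 3180 and 2856 in WT, against 2489 and 2301 in REL. The REL values lay below the WT range by little, and the difference was −0.26 (SE 0.21). Its second probe set, 1448214_at, was dim (24.3 to 128) and at −0.55 (SE 0.68). Pdha1, which encodes the subunit whose phosphorylation switches the complex off, had 3179, 2763 and 3296 in WT, against 3231 and 2553 in REL. These values overlapped, with a difference of −0.096 (SE 0.21), which turned to 0.073 both without REL 2 and with the arrays centred on their medians. The probe set 1449137_at of Pdha1 had 639, 1141 and 655 in WT, against 428 and 786 in REL, also overlapping, and was at −0.42 (SE 0.44).

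Dlat encodes the E2 core, which carries the lipoyl arm. Its probe set 1426265_x_at gave signals of 355, 328 and 359 in WT, against 308 and 250 in REL, and 1426264_at had 362, 359 and 289 in WT, against 266 and 259 in REL. In both the REL values lay under all WT values, with differences of −0.31 (SE 0.46) and −0.33 (SE 0.46). These errors are wider than the spread seen in Dlat, since limma draws them toward that of other genes of like signal. The remaining probe set, 1452005_at, swung from 118 to 512 within WT (511, 118 and 512, against 147 and 263 in REL) and was at −0.65 (SE 0.69). Without WT 2 it became the brightest, and the difference of Dlat was then −1.30, while without REL 2 the brightest was at −0.16.

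Dld, for the shared E3 subunit, gave signals of 787, 964 and 840 in WT, 2085 in REL 1 and 561 in REL 2. The REL arrays lay on opposite sides of the WT range, and the difference of 0.33 (SE 0.50) was 1.26 without REL 2 and −0.60 without REL 1. The SD of its log2 values was 0.15 in WT (n = 3) and 1.32 in REL (n = 2). The REL arrays thus gave Dld no single direction.

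Cs gave signals of 7527, 10192 and 9261 in WT, against 6046 and 8088 in REL on its brightest probe set. REL 1 lay below the WT range and REL 2 inside it, and the difference was −0.35 (SE 0.18). Its other probe sets, 1422578_at and 1422577_at, were closer to 0, at −0.14 (SE 0.16) and −0.031 (SE 0.21). Without REL 2 the difference of the brightest was −0.56, and without REL 1 it was −0.14.

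Ogdh gave signals of 1619, 1212 and 1589 in WT, against 955 and 1513 in REL, so that REL 1 was the lowest array and REL 2 lay within WT. The difference was −0.28 (SE 0.31), and 0.049 without REL 1. The probe set 1445632_at pointed the other way, with 668, 230 and 392 in WT, against 443 and 797 in REL (0.58, SE 0.53).

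**Figure D2:**
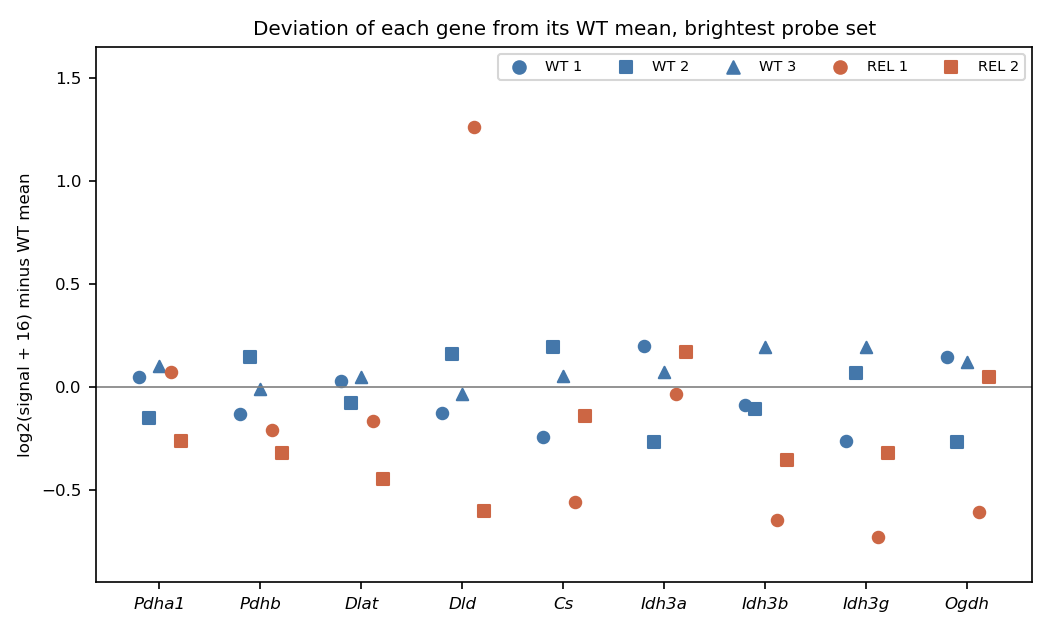
Log2(signal + 16) of the brightest probe set of each gene minus its WT mean, for the 3 WT (blue) and 2 REL (orange) arrays. REL 1 is lowest for Cs, Idh3b, Idh3g and Ogdh and highest for Dld, while REL 2 is lowest for Pdha1, Pdhb, Dlat and Dld.

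Within each array, the 9 genes had a median deviation from their WT means of −0.087, −0.078 and 0.070 for the WT samples, and −0.21 and −0.32 for the REL samples. The same median over all genes was −0.042, 0.0025 and 0.054 for the WT samples, and −0.041 and −0.076 for the REL samples. The REL arrays differed in which genes lay lowest. In REL 1 the deviations ran from −0.73 (Idh3g) to 1.26 (Dld), with Idh3b at −0.65, Ogdh at −0.61 and Cs at −0.56. In REL 2 they ran from −0.60 (Dld) to 0.17 (Idh3a), with Dlat at −0.45 and Idh3b at −0.36. In WT every deviation lay between −0.27 and 0.20. The WT deviations of a gene are centred on its own WT mean, which narrows their range, while the REL deviations are not.

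Over all 21 probe sets past the filter, 17 were lower in REL and 4 higher, where 53.8% of the 20975 probe sets tested were lower. In 7 of the 21 the REL values were both under the lowest WT value (13.4% of all probe sets), and in 0 both over the highest (10.8%). The median difference was −0.31, beside −0.045 for all probe sets. None passed at an adjusted p under 0.05 (limma over all probe sets, 0% of them called; adjusted p 0.489 to 0.984), and 3 were at an unadjusted p under 0.05, the brightest of Idh3g and the 2 bright ones of Idh3b, against 8.31% of all in either direction, 4.53% lower and 3.78% higher. For 5 of the 9 genes (Pdha1, Pdhb, Dlat, Cs and Idh3g) every probe set tested was lower, by as little as −0.031 (SE 0.21) for Cs 1422577_at. No share of all genes is given beside this count. Idh3a, Idh3b and Ogdh had probe sets on both sides of 0, and Dld had 1 tested. Probe sets of 1 gene read the same RNA and are not replicates.

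**Figure D3:**
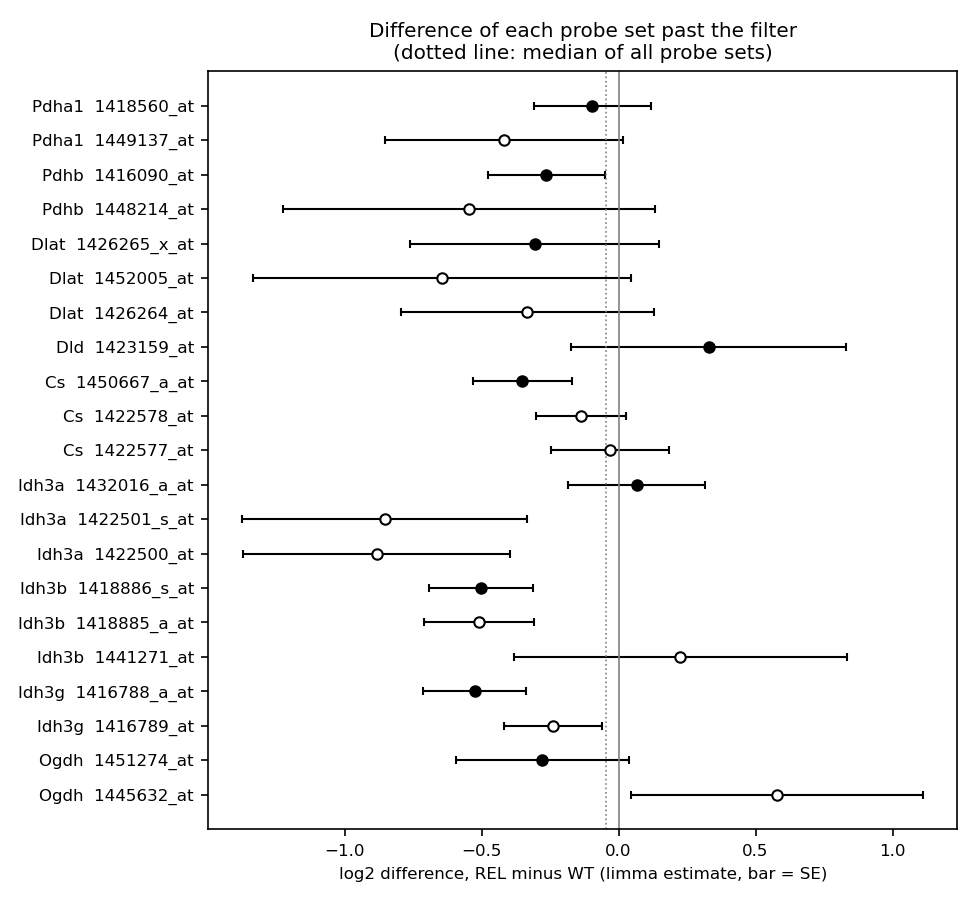
Log2 difference (REL minus WT, limma estimate) of the 21 probe sets past the filter, with bars for the SE. Filled symbols mark the brightest probe set of each gene, the dotted line is the median of all probe sets at −0.045, and 17 of the 21 points lie below 0.

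Centring each array on its median log2 signal raised the median over all genes by 0.17, from −0.064 to 0.11, and that of the 9 genes from −0.28 to −0.11. Centring moves the difference of every gene by the same amount, so the distance of −0.21 between the medians could not change. With this scaling 0 of the 9 genes had REL arrays below every WT array (7.29% of all genes), 6 of the 9 were lower, and 0 were at an unadjusted p under 0.05. With the log2 values of a gene's probe sets averaged, 2 of the 9 had REL arrays below every WT array (13.7% of all genes) and 0 were at an unadjusted p under 0.05. REL 2 had the lowest array median, at a signal of 30.1 against 40.7 to 54.6 on the other arrays, while the 2% trimmed mean was 500 on all 5.

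The promoters of the 4 genes whose REL arrays lay below every WT array are given here to set their sequences beside each other. Each is the RefSeq window of GRCm38.p6 from 250 bases before to 50 after the transcript start, read along the gene's strand, with each CCAAT box (CCAAT or, in the other orientation, ATTGG) in capitals.
Idh3b, chr2:130284402-130284701, minus strand: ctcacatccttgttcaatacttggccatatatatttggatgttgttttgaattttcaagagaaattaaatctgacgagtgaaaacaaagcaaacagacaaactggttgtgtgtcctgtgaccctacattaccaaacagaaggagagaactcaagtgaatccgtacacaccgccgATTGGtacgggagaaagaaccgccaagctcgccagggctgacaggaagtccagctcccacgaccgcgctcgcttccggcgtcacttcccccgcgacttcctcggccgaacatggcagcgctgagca
Idh3g, chrX:73786848-73787147, minus strand: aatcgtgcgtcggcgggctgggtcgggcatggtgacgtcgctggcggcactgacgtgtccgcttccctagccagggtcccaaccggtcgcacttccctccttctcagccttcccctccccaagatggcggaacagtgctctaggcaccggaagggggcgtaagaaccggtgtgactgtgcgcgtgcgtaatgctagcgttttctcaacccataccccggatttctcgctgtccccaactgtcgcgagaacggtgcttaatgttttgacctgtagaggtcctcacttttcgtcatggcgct
Pdhb, chr14:8172943-8173242, minus strand: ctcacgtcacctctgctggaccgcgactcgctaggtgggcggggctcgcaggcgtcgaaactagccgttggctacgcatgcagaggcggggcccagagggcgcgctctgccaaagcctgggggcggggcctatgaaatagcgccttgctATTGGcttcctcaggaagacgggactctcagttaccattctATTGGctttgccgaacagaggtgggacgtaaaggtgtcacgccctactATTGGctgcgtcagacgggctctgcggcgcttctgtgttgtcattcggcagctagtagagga
Dlat, chr9:50659731-50660030, minus strand: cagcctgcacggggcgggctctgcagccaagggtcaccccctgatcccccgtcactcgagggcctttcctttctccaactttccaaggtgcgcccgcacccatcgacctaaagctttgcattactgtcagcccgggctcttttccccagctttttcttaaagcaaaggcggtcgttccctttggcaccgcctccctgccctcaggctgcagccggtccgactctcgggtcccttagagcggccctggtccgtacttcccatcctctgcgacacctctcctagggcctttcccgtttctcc

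The windows of 8 of the 9 genes were in the RefSeq table, 13 windows in all, 6 of them for Ogdh and none listed for Idh3a. A CCAAT box, which nuclear factor Y binds, was in a window of 5 of the 8 genes (Pdhb, Dld, Cs, Idh3b and Ogdh), against 41.1% of the 27025 genes in the table. Pdhb held 3 of them, all as ATTGG, starting 101, 60 and 12 bases before the transcript start, and Idh3b 1, 76 bases before it. Idh3g and Dlat held none of the 4 motifs searched. The E-box CACGTG, which MYC and its relatives bind, and the core GCATGCGC of the site of NRF1, a regulator of genes for mitochondrial proteins, were each in windows of 1 gene, Ogdh, against 8.09% and 3.05% of all genes, and Ogdh has more windows than the others. The ERR motif TNAAGGTCA was in 0 of the 8 (1.43% of all genes). Both strands were searched, none of these motifs overlapped in the windows shown, and a match is a description of letters only. Of the bases in the member windows a median of 59.7% were G or C, against 52.7% in all 32851 windows.

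Other genes of the pathway were counted in 6 lists. Of 56 listed genes 46 passed the filter. Of the 46, 31 were lower and 15 higher in REL (56% of all genes were lower), with a median of −0.20 beside −0.064 for all genes. None was called by limma over all genes (adjusted p 0.399 to 0.995), 6 were lower at an unadjusted p under 0.05 (4.97% of all genes) and 0 higher (3.36%). The REL values were both under the lowest WT value in 16 of the 46 (14.2% of all genes) and both over the highest in 5 (10% of all genes).

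Partner subunits of the same complexes had 3 lower and 3 higher among 6, with a median of −0.34. Pdhx, which tethers E3 to the pyruvate dehydrogenase core, gave signals of 881, 680 and 409 in WT, against 189 and 287 in REL. Both REL values were below all WT values, and its difference of −1.37 (SE 0.49, limma adjusted p = 0.486) was larger in size than that of any of the 9 genes. Gcsh, the lipoylated carrier of the glycine cleavage system, had 1375, 1602 and 1723 in WT, against 964 and 835 in REL (−0.79, SE 0.28), without overlap. Dlst, the E2 subunit of 2-oxoglutarate dehydrogenase, was at 0.31 (SE 0.25), with both REL values (1949 and 1991) above every WT value (1367 to 1782). Its 3 other probe sets, all dimmer, were below 0. Bckdhb, of the branched-chain complex, was at −1.07 (SE 0.88), and its arrays overlapped.

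Of the remaining TCA enzymes all 9 tested were lower, where 56% of all genes were, with a median of −0.19 beside −0.064 for all genes. In 3 of the 9 both REL values lay below every WT value (14.2% of all genes). Sdha, the flavoprotein of succinate dehydrogenase, was at −0.59 (SE 0.18, limma adjusted p = 0.43), although 2 of its 4 probe sets lay above 0. Sdhd, a membrane anchor of the same complex, was at −0.54 (SE 0.25), the fumarase gene Fh1 at −0.48 (SE 0.21) and the malate dehydrogenase gene Mdh2 at −0.16 (SE 0.14).

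The kinases and phosphatases that act on pyruvate dehydrogenase and its relatives had 3 lower and 3 higher among 6, with a median of 0.071 and none at an unadjusted p under 0.05. The phosphatase gene Pdp1 was at −0.97 (SE 0.60) and the kinase gene Pdk3 at −0.49 (SE 0.31), both without overlap, with a second Pdp1 probe set at 0.77. Pdpr, a regulatory subunit of the phosphatase, was at 0.30 (SE 0.50). Pdk1, an inhibitory kinase, was at 0.18 (SE 0.30). Its 3 other probe sets were below 0, at −0.17 (SE 0.42), −1.73 (SE 0.82) and −1.75 (SE 1.03).

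Genes for pyruvate entry and its other fates had 7 lower and 1 higher among 8 (56% of all genes were lower), with a median of −0.44. Mpc1, a subunit of the mitochondrial pyruvate carrier, gave signals of 1134, 1903 and 1293 in WT, against 600 and 741 in REL. The REL values lay below every WT value, and the difference was −1.06 (SE 0.34, limma adjusted p = 0.441). Gpt2, a mitochondrial alanine aminotransferase, had 506, 153 and 370 in WT, against 81.4 and 14.5 in REL (−2.57, SE 0.73), lower on all 3 of its probe sets and without overlap. Ldha, which encodes the lactate dehydrogenase subunit that favours lactate, was at −0.52 (SE 0.16), and Got2, the mitochondrial aspartate aminotransferase, at −0.36 (SE 0.19) with overlap.

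Lipoate is attached to Dlat and to the matching subunits of the related complexes, and of 8 genes for its synthesis and attachment 5 were lower, with a median of −0.20. Bola3 was at −0.74 (SE 0.39), with its other probe set at 1.98, and Nfu1, which delivers iron-sulfur clusters, at 0.28 (SE 0.17) with REL above WT on all arrays. Glrx5 was at −0.25 (SE 0.27) and the lipoate synthase gene Lias at −0.24 (SE 0.34), with 2 other Lias probe sets above 0. The NADP-linked and cytosolic enzymes and carriers had 4 lower and 5 higher among 9, with a median of 0.062. The 2-oxoglutarate carrier gene Slc25a11 was at 0.69 (SE 0.33), without overlap, and the dicarboxylate carrier gene Slc25a10 at −0.82 (SE 0.44). The cytosolic malate dehydrogenase gene Mdh1 was at −0.35 (SE 0.16) and the ATP-citrate lyase gene Acly at −0.21 (SE 0.13). For each of these 3 of 4 probe sets were lower, and the other was at 0.44 for Mdh1 and 0.68 for Acly. The difference between these lists was not tested.

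**Figure D4:**
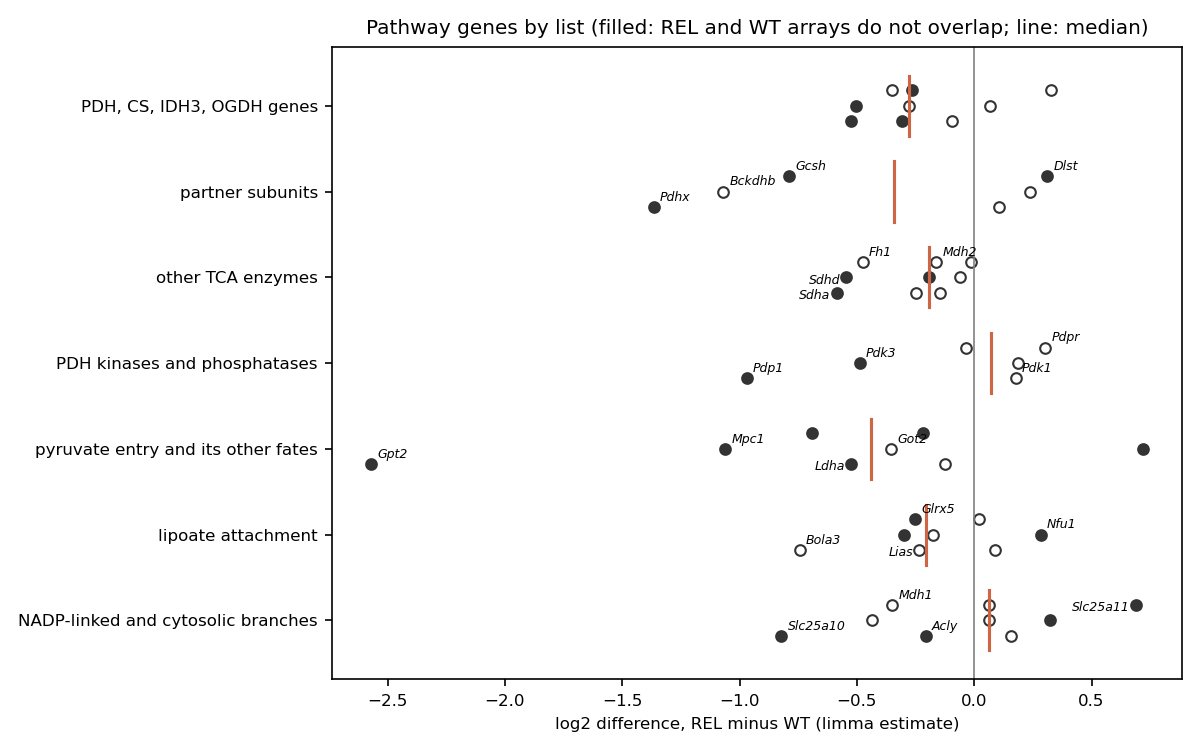
Log2 difference (REL minus WT, limma estimate) of each gene past the filter, by list, with 1 point per gene. Filled points are genes whose REL and WT arrays do not overlap, orange lines are list medians from −0.44 (pyruvate entry and its other fates) to 0.071 (kinases and phosphatases), and the 4 genes with the smallest p of each list other than the top one are named.

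The mean profile of the 9 genes over the 5 arrays was closest to that of Ankrd13a, Ggnbp2, Hnrnpc, Ube2h and Cnot6, by root-mean-square distance between log2 values centred on each gene's mean (0.017 to 0.028). Their differences were −0.21 to −0.24, with an SE of 0.14 to 0.19. Dlat stood at rank 159 of 11329 genes in this order and Pdhb at 230, while Dld, whose REL arrays went apart, stood at 8501. The distance of Dlat was 0.092. A profile over 5 arrays is short, the 9 genes themselves form the mean profile they are ranked against, and the order is a description.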

How the data were processed

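Total RNA (about 10 ng from about 30000 sorted cells per sample) was reverse transcribed with an Ovation amplification kit and the product labelled with biotin, per the labels' protocols. The values are linear MAS5 intensities in 1 table that the authors deposited, with 45101 probe sets and 5 arrays. MAS5 is named without a version in the submitters' processing notes. Its scaling left the same 2% trimmed mean on every array. MAS5 treats each array by itself, so that dim signals vary widely on a log scale.

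Gene symbols came from the platform's annotation. Of the probe sets 34958 had 1 symbol, and 932 with several and 9211 with none were left out. Signals became log2(signal + 16), with no further scaling. The lowest 40% of the named probe sets by mean signal were left out, and the brightest probe set of each gene was kept for the gene comparison. The groups, 3 WT and 2 REL arrays, were compared with limma 3.58.1 (R 4.3.3; linear fits moderated by empirical Bayes with a trend on mean level, 3 residual and 6.42 prior degrees of freedom), with Benjamini-Hochberg adjustment over all features. The code was tested on simulated data. The number of arrays limits the precision, with a median SD between arrays of 0.35 in WT and 0.36 in REL.

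The 9 genes, the gene lists and the marker lists were chosen with earlier results of these data known. The rule for names took all 9 genes, Rel, up to 4 genes per pathway list by smallest p, and the 5 genes nearest in profile. The markers Vcam1, Adgre1, Gcsam, Rgs13, Sdc1, Xbp1, Cd247, Cd3d, Cd3e, Cd3g and Cd4 were named after their values were seen. Alternatives were other pseudocounts, filters and scalings, averaged probe sets, no trend, the replicate number as a block, each array left out, and, added after seeing the data, a filter and choice of probe set by mean log2 signal. Python 3.11.15 with pandas 2.3.3 and matplotlib 3.10.9 was used for sequences and plots.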

Additional observations from a re-analysis of the deposited data

How the results depend on the processing

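None of the 9 genes or the other pathway genes tested was called under any of the 15 alternatives run, nor any of their probe sets under those that test probe sets singly, all but the averaging of probe sets (lowest adjusted p of 1 of the 9 genes 0.241, for Dld without REL replicate 2); limma called 0 of all genes as reported, 944 at an unadjusted p under 0.05, and 1 with median centring, 2 with quantile normalization, 8 without REL replicate 1 and 1 with the filter by mean log2 signal. The median difference of the 9 genes was −0.11 with median centring and −0.29 to −0.21 with each array left out. Relative to the median of all genes, it lay between −0.24 and −0.17 in all settings, of which median centring and leaving out the trend could not change this distance. Idh3b, Idh3g, Pdhb, Dlat and Cs kept their direction in all settings. Pdha1 turned to 0.073 with median centring, and ran from −0.27 to 0.073 with an array left out. With all probe sets of a gene averaged Idh3a was at −0.56 and Ogdh at 0.15. With an array left out, Idh3a ran from −0.067 (without WT replicate 2) to 0.17, Dld from −0.60 to 1.26 and Ogdh from −0.61 to 0.049, and Idh3a was at −0.035 without REL replicate 2. Dlat was at −1.30 without WT replicate 2, because another probe set was then the brightest. The brightest Dlat probe set also changed without WT replicate 3 (1426264_at, −0.44) and without REL replicate 1 (1452005_at, −0.26). Of the 9 genes at an unadjusted p under 0.05, 2 as reported, there were 0 with median centring, with averaged probe sets, without the trend, and without WT replicate 3 or REL replicate 1.

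The replicate number as a block gave a median of −0.27 for the 9 genes, with 1 residual degree of freedom. It called 0 of the 9 and 17 of all genes. No REL array shares the number of WT replicate 3, so the block leaves that array out of the differences. The median was the same without WT replicate 3 (−0.27), so these settings are not separate checks of the differences. Deviations of same-numbered arrays correlated at −0.027 and −0.014 across genes. With only 2 REL arrays, deviations from their mean are equal and opposite, so both correlations use the same REL values. They cannot exclude a pairing.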
